A study of Mus musculus with 7 samples.

Results

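White adipocytes store triglyceride in a single large droplet. They also secrete hormones such as adiponectin and leptin into the blood. The subcutaneous (s/c) layer of the mouse flank, in which these tumors were grown, lies next to white fat. The 10 adipocyte genes described here are *Adipoq*, *Plin1*, *Plin4*, *Lep*, *Cfd*, *Cidec*, *Fabp4*, *Retn*, *Pparg* and *Lpl*. They were taken by symbol from the 38026 rows of the deposited expression table, and each symbol had 1 row.

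The tumors were murine pancreatic ductal adenocarcinomas (PDA) grown s/c from the 1242 cell line, which was derived from a tumor of a C57BL/6 mouse that carried, among its engineered alleles, Trp53 R172H/+ behind an LSL stop cassette opened by Cre under the Pdx1 promoter, and from which all injected cells of both groups descended. The cancer cells had received a lentivirus carrying Cas9 and either a scrambled guide (sgScramble, 4 tumors, replicates 1 to 4) or a guide against *Krt19* (sgKRT19, 3 tumors, replicates 5, 6 and 8), so the control cells also carried Cas9. They were injected into the right flank of C57BL/6 mice bought at 6 weeks of age and housed for 2 weeks, and the tumors were taken 2 weeks after injection with no further treatment. The study made both polyclonal lines and single-cell clones, and the labels do not say which were sequenced. The labels also do not tie a tumor to an animal or record whether fat was trimmed from it, so the p-values below measure the spread between these 7 samples. The RNA was extracted from whole tumors, in which the host cells were not edited. In such bulk RNA, fewer adipocytes and less RNA per adipocyte cannot be told apart.

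Each library held 40781199 to 44972100 reads assigned to genes. A floor of 3 reads, at or under which a value was marked as low, corresponded to a normalized read count of 2.74 to 3.47 depending on the library. Intervals on reads cover counting error only. *Krt19*, the targeted gene, had normalized read counts of 17841 to 27618 in sgScramble tumors and 1606 to 2470 in sgKRT19 tumors (log2 fold change -3.52, limma adjusted p = 1.74e-05). Of 21322 genes with a normalized read count of at least 10 in at least 3 libraries, limma called 7240 (34.0%) with an adjusted p below 0.05. Calls higher in sgKRT19 tumors made up 17.9% of tested genes and calls lower 16.0%. For 41.1% of tested genes, no library of one group lay within the range of the other. When libraries were scaled by total reads alone, the median over all tested genes of the log2 fold change moved to -0.21 and the share of calls that were higher went from 52.8% to 27.7%.

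Lipid storage in adipocytes is driven by the nuclear receptor PPARγ together with the C/EBP transcription factors, both of which bind near the genes that adipocytes use. C/EBP proteins bind as dimers to paired TTGC and GCAA elements. Promoter windows of 250 bases before the transcription start were given in RefSeq for 8 of the 10 genes, as 11 windows on GRCm38.p6. *Fabp4* and *Lpl* had none. A C/EBP-type motif, TTGCNNAA searched on both strands, occurred in 4 of the 11 windows and in 9.56% of 32851 windows of the same length. The pair printed here belong to *Lep* and *Plin1*, adipocyte genes that had the same 3 highest tumors, with the letters of the motif in capitals and the rest of the window in lower case.

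*Lep*, chr6:29059971-29060220, plus strand: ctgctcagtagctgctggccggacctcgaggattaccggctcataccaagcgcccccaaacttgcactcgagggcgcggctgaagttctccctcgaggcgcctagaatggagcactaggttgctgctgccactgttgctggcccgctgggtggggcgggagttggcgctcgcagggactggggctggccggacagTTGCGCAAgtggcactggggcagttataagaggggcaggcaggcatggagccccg

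*Plin1*, chr7:79732777-79733026, minus strand: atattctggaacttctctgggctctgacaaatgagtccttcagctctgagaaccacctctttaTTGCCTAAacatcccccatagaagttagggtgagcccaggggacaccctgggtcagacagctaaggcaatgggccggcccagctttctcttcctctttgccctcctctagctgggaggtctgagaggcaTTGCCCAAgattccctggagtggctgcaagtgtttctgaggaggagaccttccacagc

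The motif began 55 bases before the RefSeq start of *Lep*, where it reads the same on both strands, and 187 and 58 bases before the RefSeq start of *Plin1*. The gene position of *Plin1* given below, from GENCODE, begins within this window. By that position the motif at 58 bases lies inside the gene. The other windows that held it belonged to *Cidec* and *Pparg*, which had other tumors as their 3 highest. The windows of *Adipoq*, *Cfd* and *Retn*, which had the same 3 highest tumors as *Lep* and *Plin1*, held no such motif. Nor did that of *Plin4*, which had other tumors highest. A direct repeat of the type bound by PPARγ with RXR, which is AGGTCA followed after 1 base by AGGTCA on either strand, occurred in 0.0335% of windows and in none of the 11. These matches are letters in a window and were not tested as binding sites.

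The genes that encode adipocyte hormones varied widely between tumors of the same group, and their groups overlapped. *Adipoq* (chr16:23146536-23158028 on GRCm38, plus strand) encodes adiponectin, a hormone made almost only by adipocytes. Its normalized read counts were 157, 9.88, 9.13 and 73.3 in sgScramble tumors 1 to 4 and 11.6, 12.0 and 68.3 in sgKRT19 tumors 5, 6 and 8. Tumors sgScramble 1, sgScramble 4 and sgKRT19 8 were high, the other 4 were near 10, and the groups overlapped. The lowest of these values came from 10 reads (95% exact Poisson interval 4.8 to 18.4) and the highest from 169 reads (144.0 to 196.0). The difference between the groups did not pass the test (log2 fold change -0.59, SE 0.98, 95% interval -2.77 to 1.59, limma adjusted p = 0.663).

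*Cfd* (chr10:79890853-79892655, plus strand) encodes adipsin, a serine protease of the complement system that adipocytes secrete. In sgScramble tumors it was at normalized read counts of 879, 80.0, 45.7 and 591, and in sgKRT19 tumors at 150, 77.0 and 435. The same 3 tumors were highest, with a 19.2-fold range among sgScramble tumors and a 5.65-fold range among sgKRT19 tumors. Between the groups the difference did not pass the test (log2 fold change -0.29, SE 0.97, 95% interval -2.45 to 1.88, limma adjusted p = 0.839).

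*Retn* (chr8:3655770-3660110, plus strand) encodes resistin, which in mice is secreted by white adipocytes. Its normalized read counts were 25.1, 4.94, 1.83 and 36.2 in sgScramble tumors and 3.47, 3.0 and 16.8 in sgKRT19 tumors. *Lep* (chr6:29060220-29073877, plus strand) encodes leptin, the hormone that reports fat stores to the brain, and its normalized read counts were 32.5, 2.96, 0.913 and 14.8 in sgScramble tumors and 0, 0 and 8.40 in sgKRT19 tumors. For both genes the high tumors were again sgScramble 1, sgScramble 4 and sgKRT19 8, and other tumors lay at or near the 3-read floor. The *Lep* value of sgKRT19 8 rested on 8 reads (95% exact Poisson interval 3.45 to 15.8). The values of 0 for *Lep* in sgKRT19 5 and sgKRT19 6 are 0 reads, for which the 95% exact Poisson interval reaches 3.69 reads. *Retn* did not pass the test (log2 fold change -0.73, SE 0.89, limma adjusted p = 0.547). *Lep* did not pass the filter on low values. With no filter it differed by -1.92 on the log2 scale (SE 0.98, limma adjusted p = 0.203), a value that depends on the pseudocount of 1.

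*Plin1* (chr7:79720218-79732903, minus strand) encodes perilipin 1, which coats the droplet of white adipocytes and controls access of lipases to it. Normalized read counts of *Plin1* were 39.9, 3.95, 2.74 and 43.6 in sgScramble tumors and 6.94, 4.0 and 13.7 in sgKRT19 tumors. The same 3 tumors were highest, although sgKRT19 8 with 13 reads (6.92 to 22.2) lay closer to sgKRT19 5 with 6 reads (2.2 to 13.1) than it did for *Adipoq*. The difference between the groups did not pass the test (log2 fold change -0.70, SE 0.89, limma adjusted p = 0.563).

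**Figure D1:**
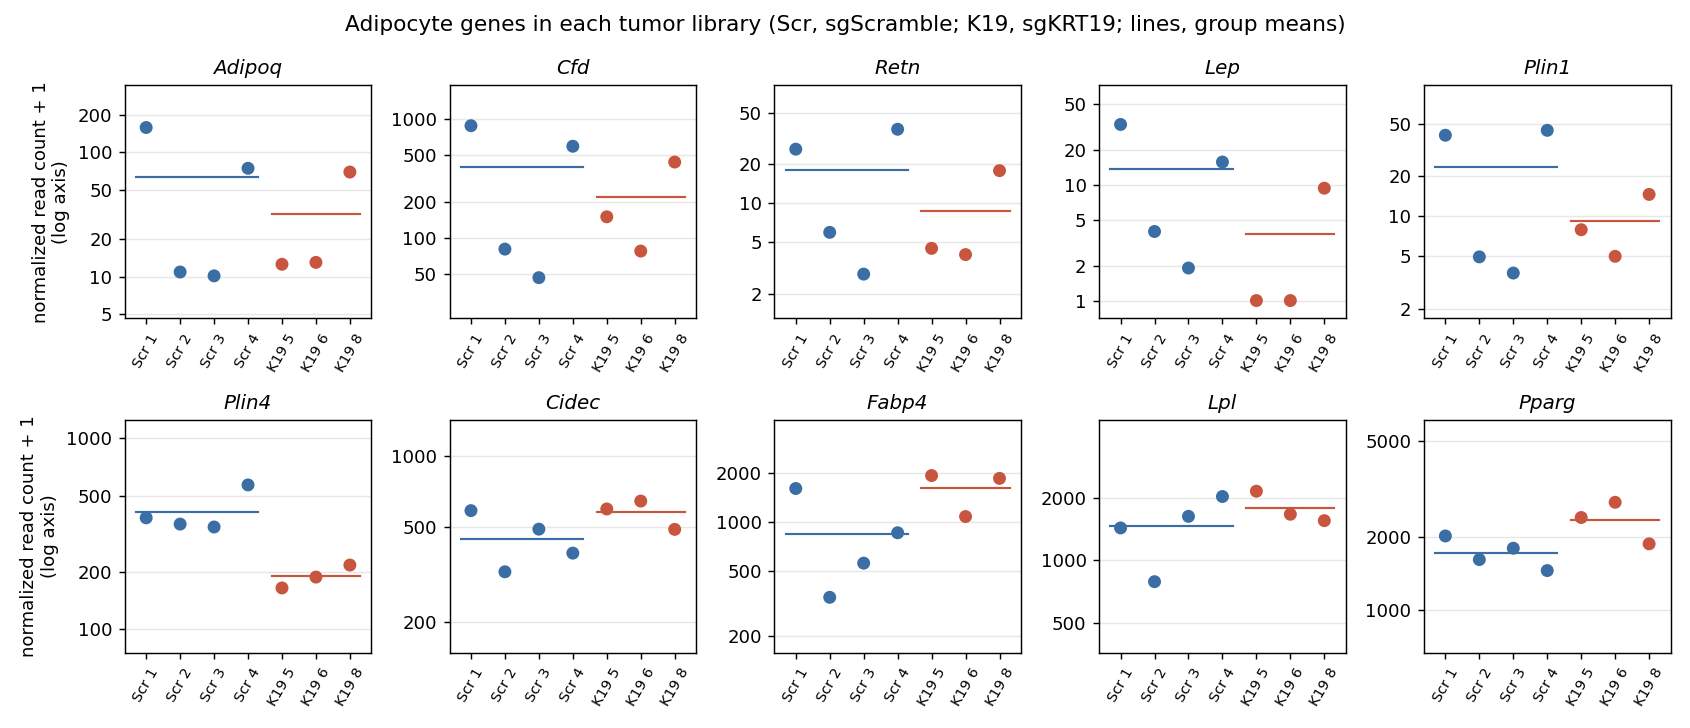
Normalized read count plus 1 (log axis, scaled separately for each gene) of the 10 adipocyte genes in each of 7 tumor libraries, sgScramble in blue and sgKRT19 in red, with horizontal lines at the group means. In the upper row the tumors sgScramble 1, sgScramble 4 and sgKRT19 8 are the 3 highest for every gene, and in the lower row only *Plin4* separates the groups.

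Thus 5 of the 10 genes (*Adipoq*, *Cfd*, *Retn*, *Lep* and *Plin1*) had the same 3 highest libraries, which came from both groups. The 3 libraries were taken from *Adipoq*, so that gene is in the set by definition. Of all 21322 tested genes, 126 (0.591%) had these 3 libraries as their highest, and of the 36430 genes with at least 1 read, 301 (0.826%) did. The 126 include the tested genes of this set and 21 rows of near-identical *Mup* genes. The summed normalized read count of the 5 genes was 1133, 102, 60.3 and 759 in sgScramble tumors 1 to 4 and 172.2, 96.0 and 542 in sgKRT19 tumors 5, 6 and 8. The ratios of *Cfd*, *Plin1* and *Retn* to *Adipoq* varied less over the libraries than those of the 5 members outside this set. Because the set was formed by the highest libraries of *Adipoq*, this contrast follows in part from the choice and is only a description. The ratio of *Cfd* to *Adipoq* lay between 5.0 and 13 over the 7 libraries, a 2.6-fold range, and the ratio of *Plin1* to *Adipoq* lay between 0.2 and 0.6. The ratio of *Retn* to *Adipoq* had a 3.12-fold range. That of *Lep* reached 0.3 and was 0 in sgKRT19 5 and sgKRT19 6, so it has no fold range. For the other genes the ratio to *Adipoq* ranged 14.4-fold for *Cidec*, 15.4-fold for *Plin4*, 16.2-fold for *Fabp4*, 18.1-fold for *Pparg* and 20.4-fold for *Lpl*. These ranges include that of *Adipoq* itself, which was 17.2-fold among sgScramble tumors.

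The spread between tumors of a group also differed among the members. The SD within groups of log2(value + 1) was 1.80 for *Cfd*, 1.78 for *Adipoq*, 1.57 for *Plin1* and 1.56 for *Retn*, against a median of 0.24 over all tested genes. Only 0.122% of tested genes had a larger SD than *Cfd*, and 0.22% had a larger SD than *Retn*. Because SD falls with level, each gene was also set beside the tested genes whose mean was within 2-fold of its own. Among these, the share with a larger SD was 0.0897% for *Adipoq*, 0.119% for *Plin1*, 0.174% for *Retn* and 0.234% for *Cfd*. *Fabp4*, with an SD of 0.79, and *Lpl*, with an SD of 0.48, were also variable for their level, exceeded by 0.4% and 1.68% of genes of like level. The SD was 0.32 for *Cidec*, 0.24 for *Pparg* and 0.29 for *Plin4*, which 16.2%, 22.1% and 28.7% of genes of like level exceeded. Each of the 9 tested members was above the median SD of its level.

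**Figure D2:**
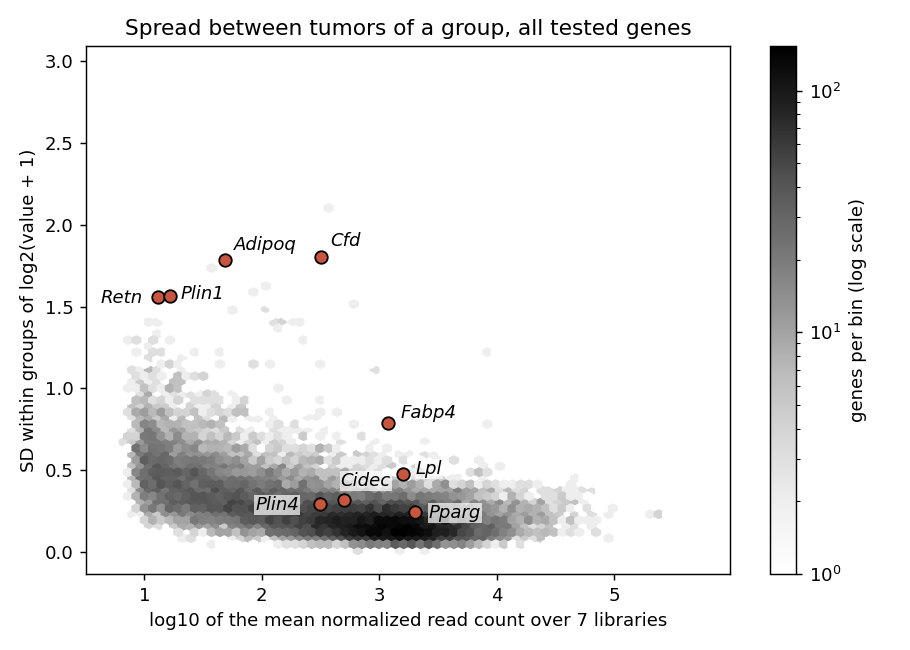
SD within groups of log2(value + 1) against the log10 of the mean normalized read count over 7 libraries, for all 21322 tested genes (grey bins, darker with more genes) and the 9 tested adipocyte genes (red). *Cfd*, *Adipoq*, *Plin1* and *Retn* lie between 1.56 and 1.80, above nearly all genes of their level, *Fabp4* (0.79) and *Lpl* (0.48) lie above most genes of their level, and *Cidec*, *Plin4* and *Pparg* lie between 0.24 and 0.32, above the median of theirs.

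*Plin4* (chr17:56100591-56109803, minus strand) encodes perilipin 4, a droplet coat protein that is abundant in white adipocytes and also made in muscle. It was the single member that passed the test, and it was lower in sgKRT19 tumors. Its normalized read counts were 382, 354, 342 and 569 in sgScramble tumors and 163, 186 and 215 in sgKRT19 tumors. The groups did not overlap, as was so for 41.1% of all tested genes. The mean was 411 ± 106 (SD, n = 4) against 188 ± 26.2 (SD, n = 3). The size of the change was -1.10 on the log2 scale (SE 0.197, 95% interval -1.54 to -0.66, limma adjusted p = 0.0025), and the gene was lower in 3 of 3 sgKRT19 tumors than in any sgScramble tumor. Among sgScramble tumors *Plin4* was highest in sgScramble 4, while sgScramble 1, at 382, was close to sgScramble 2 and sgScramble 3, where *Adipoq* was 9.88 and 9.13. *Plin4* shares 17 exon bases, 0.294% of its exons, with *Hdgfl2* on the opposite strand.

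*Fabp4* (chr3:10204088-10208576, minus strand) encodes a fatty acid carrier of adipocytes that capillary endothelium and macrophages also make. Normalized read counts of *Fabp4* were 1610, 346, 561 and 862 in sgScramble tumors and 1933, 1083 and 1858 in sgKRT19 tumors. The sgKRT19 values exceeded all sgScramble values except that of sgScramble 1, which lay above sgKRT19 6. The log2 fold change was 1.13 (SE 0.43, 95% interval 0.17 to 2.08), and it did not pass the test after adjustment (limma adjusted p = 0.0672). Summed markers of endothelium were 4445 to 5982 in sgScramble tumors and 6464 to 8496 in sgKRT19 tumors, with 4 of 8 markers higher, among them *Pecam1*, an adhesion protein of endothelial junctions (log2 fold change 0.48, limma adjusted p = 0.0212). Summed macrophage markers were 28821 to 41618 and 36039 to 53515, with 2 of 8 markers higher and 1 lower. Over all tested genes, 17.9% were higher and 16.0% lower. The part of endothelium and macrophages in the *Fabp4* values was not tested.

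*Pparg* (chr6:115360951-115490399, plus strand) encodes PPARγ, the nuclear receptor that drives adipocyte differentiation and that macrophages and some epithelial cells also use. Its normalized read counts were 2028, 1618, 1804 and 1457 in sgScramble tumors and 2418, 2796 and 1881 in sgKRT19 tumors. Only sgKRT19 8 lay within the sgScramble range. It narrowly missed the threshold (log2 fold change 0.45, SE 0.157, 95% interval 0.10 to 0.80, limma adjusted p = 0.0511). DESeq2 on recovered reads called the gene (log2 fold change 0.44, adjusted p = 0.0359).

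*Cidec* (chr6:113424634-113435760, minus strand) encodes a protein that promotes fusion of lipid droplets, known also from fatty liver. Normalized read counts of *Cidec* were 587, 324, 490 and 389 in sgScramble tumors and 597, 644 and 489 in sgKRT19 tumors. The groups overlapped, and in sgScramble 3, where *Adipoq* was 9.13, *Cidec* was at 490. The difference did not pass the test (log2 fold change 0.39, SE 0.20, limma adjusted p = 0.153).

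*Lpl* (chr8:68880491-68907448, plus strand) encodes lipoprotein lipase, which releases fatty acids from circulating lipoproteins and is made by fat, muscle and macrophages. Its normalized read counts were 1430, 790, 1626 and 2024 in sgScramble tumors and 2146, 1663 and 1550 in sgKRT19 tumors. Values above 2000 occurred in 1 tumor of each group. The difference did not pass the test (log2 fold change 0.35, SE 0.27, limma adjusted p = 0.335).

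Of the 9 members tested, limma called 1, *Plin4*, where it called 34.0% of all tested genes. With edgeR on recovered reads 1 member was also called. Without adjustment 3 passed limma p under 0.05. The share of all tested genes passing that unadjusted threshold was not counted, and it cannot be below the 34.0% called after adjustment. The median log2 fold change of the 9 was -0.29 beside 0.01 over all tested genes, and its sign was not stable. With all 9 members tested, it was 0.29 without sgKRT19 6, -1.01 without sgScramble 3 and -0.86 with edgeR. The median was 0.40 without sgScramble 1, 0.34 without sgScramble 4 and 0.44 without sgKRT19 8. In each of these last settings only 7 members passed the filter. *Plin1* and *Retn*, both negative in the main fit, had dropped out, so those medians cover another set of genes. The count rested on sgScramble 1. Without that tumor, which left 3 sgScramble tumors and 7 members above the filter, limma called 4, namely *Plin4* lower and *Fabp4* (log2 fold change 1.51, adjusted p = 0.00831), *Pparg* (0.53, adjusted p = 0.0303) and *Cidec* (0.53, adjusted p = 0.048) higher, where 19.4% of tested genes were higher. Without sgKRT19 8 it called 2, *Plin4* and *Pparg* (log2 fold change 0.60, adjusted p = 0.023). In that setting 5422 of all 21028 tested genes were called.

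**Figure D3:**
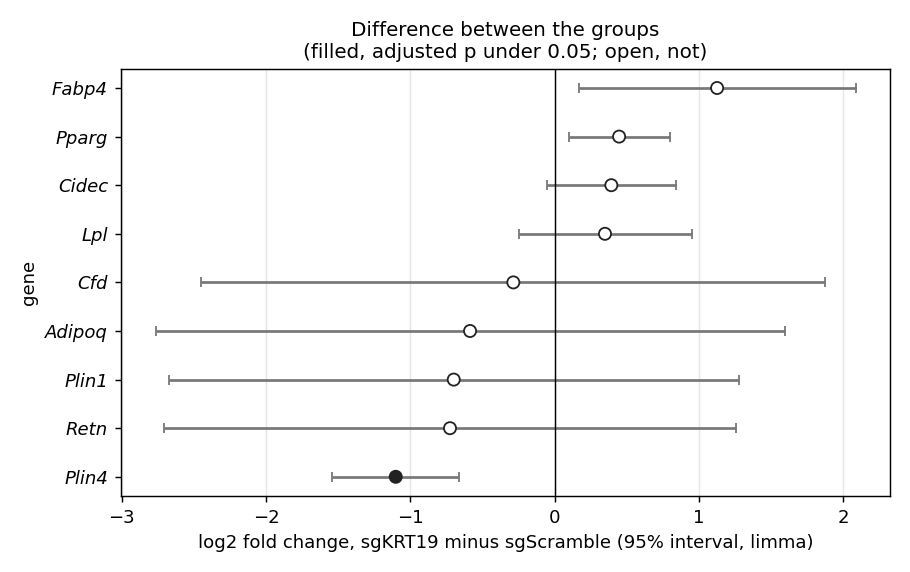
Log2 fold change (sgKRT19 minus sgScramble) of the 9 tested adipocyte genes with 95% intervals from limma, filled where the adjusted p was under 0.05. *Plin4* at -1.10 is the single filled point, and the intervals of *Retn*, *Plin1*, *Adipoq* and *Cfd* span from below -2 to above 1.

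Set per kilobase of the longest protein-coding transcript, the mean normalized read counts over all 7 libraries ranked the members as *Fabp4* (1316 per kb), *Pparg* (941), *Lpl* (390), *Cfd* (350), *Cidec* (292), *Plin4* (54.9), *Adipoq* (37.7), *Retn* (11.5), *Plin1* (5.82) and *Lep* (2.61). The adipocyte-restricted hormones other than *Cfd* and the droplet coat protein *Plin1* thus lay below the genes that other cell types also express. In sgScramble 1, the tumor with most *Adipoq*, that gene reached 122 per kb. The ranges of per-kb values over the libraries overlapped between neighbors in this order, except that the lowest value of *Pparg* lay above the highest of *Lpl* and the lowest of *Cidec* above the highest of *Plin4*. Within each of the 7 libraries *Adipoq* lay above *Retn*, *Retn* above *Plin1* and *Plin1* above *Lep*, although several of these values rested on few reads.

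The wider set of adipocyte pathway genes held 84 genes in 7 lists, of which 83 were in the table and 67 were tested. Of these, 15 were higher and 14 lower in sgKRT19 tumors, and 38 did not pass the test. Over all tested genes 17.9% were higher and 16.0% lower, and these shares also stand beside the counts of each gene and marker list below. Each list is illustrated by its 4 genes of highest mean level, and *Trarg1*, *Mrap*, *Adig*, *Adrb3*, *Lipe*, *Acly*, *Gpd1*, *Slc2a4*, *Cebpa*, *Lepr*, *Irs1*, *Irs2*, *Cox8b*, *Aoc3* and *Lgals12* were added after their values were seen. Of the 83 genes in the table, 4 had the same 3 highest libraries as *Adipoq* (1 of the 67 tested). These were *Trarg1* (an insulin-responsive regulator of glucose transporter traffic), *Mrap* (an accessory protein of the ACTH receptor), *Adig* (adipogenin) and *Adrb3* (the adrenergic receptor of fat), of which the last 3 never had more than 16 reads in a library and did not pass the filter. Other genes known from fat had other libraries highest, such as *Lipe*, *Aoc3* (a surface amine oxidase, highest in sgScramble 4 and sgScramble 2) and *Lgals12* (a galectin of lipid droplets, highest in sgKRT19 8 and sgKRT19 6). The normalized read count of *Trarg1* was 29.7 in sgScramble 1, 33.4 in sgScramble 4 and 36.8 in sgKRT19 8, and it was between 15.5 and 24.3 in the other 4 libraries.

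Around *Plin1* and *Plin4*, the list of lipid droplet and lipolysis genes had 5 of 11 tested genes higher and 1 lower. *Plin2*, the droplet coat protein of most cell types, rose by 0.67 on the log2 scale (limma adjusted p = 0.00777), from a mean normalized read count of 7264 ± 1038 (SD over 4 tumors) to 11559 ± 1971 (SD over 3 tumors). *Lipe*, hormone-sensitive lipase, rose by 0.997 on the log2 scale (limma adjusted p = 0.00221), while *Pde3b*, the phosphodiesterase through which insulin restrains lipolysis, fell (-0.65, limma adjusted p = 0.00123). *Pnpla2*, the lipase that starts triglyceride breakdown, rose by 0.29 (limma adjusted p = 0.0416). Among the coat protein genes, *Plin2* was thus higher and *Plin4* lower, and *Plin3* did not pass the test (0.05, limma adjusted p = 0.755).

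Of 15 tested genes of fatty acid and triglyceride synthesis, 4 were higher and 4 lower. *Fasn*, fatty acid synthase, fell by 1.19 on the log2 scale (limma adjusted p = 0.00148) and *Acly*, which supplies its acetyl-CoA, fell by 0.84 (limma adjusted p = 0.00078). *Gpd1*, which makes the glycerol backbone and is abundant in muscle as well as in fat, rose by 1.90 on the log2 scale (limma adjusted p = 0.00016). The desaturase genes *Scd2* (-0.59, limma adjusted p = 0.0971) and *Scd1* (-0.17, limma adjusted p = 0.609) and malic enzyme *Me1* (-0.13, limma adjusted p = 0.434) did not pass the test. For fatty acid and glucose uptake, the list to which *Lpl* and *Fabp4* are nearest in role, 2 of 8 tested genes were higher. These were *Angptl4*, an inhibitor of lipoprotein lipase (log2 fold change 0.95, limma adjusted p = 0.00107), and *Slc2a4*, the insulin-responsive glucose transporter of fat and muscle (2.45, limma adjusted p = 0.00116). *Gpihbp1*, which holds lipoprotein lipase on capillary endothelium (0.66, limma adjusted p = 0.0801), the fatty acid carrier *Fabp5* (0.09, limma adjusted p = 0.669) and the fatty acid transporter *Slc27a1* (-0.16, limma adjusted p = 0.501) did not pass the test.

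Of 11 tested adipocyte transcription factors, 2 were higher and 4 lower. *Cebpa*, the partner of PPARγ in adipocytes, did not pass the test (log2 fold change 0.06, limma adjusted p = 0.764), *Cebpb* rose (0.52, limma adjusted p = 0.0383), and *Srebf1*, which drives lipid synthesis genes, fell (-0.48, limma adjusted p = 0.0172). *Rxra*, the partner with which PPARγ binds DNA, also fell (-0.33, limma adjusted p = 0.0325), and *Cebpd* did not pass the test (-0.25, limma adjusted p = 0.388). Of 7 tested genes for receptors of adipocyte hormones and insulin and for insulin receptor substrates, 3 were lower. Besides *Lepr*, these were the substrates *Irs1* (-0.52, limma adjusted p = 0.0339) and *Irs2* (-0.62, limma adjusted p = 0.0292). *Lepr*, the receptor of leptin, had normalized read counts of 2750, 3297, 1954 and 2646 in sgScramble tumors and 1045, 838 and 605 in sgKRT19 tumors (log2 fold change -1.69, limma adjusted p = 0.000334). The adiponectin receptors *Adipor1* (0.28, limma adjusted p = 0.069) and *Adipor2* (0.01, limma adjusted p = 0.928), the adiponectin-binding cadherin *Cdh13* (0.30, limma adjusted p = 0.181) and the insulin receptor *Insr* (-0.003, limma adjusted p = 0.991) did not pass the test.

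Of 10 tested genes for other secreted and surface proteins of adipocytes, 1 was higher and 2 were lower. *Car3*, a carbonic anhydrase abundant in fat and in muscle, had normalized read counts of 464, 49.4, 115 and 378 in sgScramble tumors and 1215, 1151 and 1503 in sgKRT19 tumors (log2 fold change 2.84, limma adjusted p = 0.00805). Within each group its highest libraries were those of *Adipoq*, sgScramble 1 and sgScramble 4 in one and sgKRT19 8 in the other. *Rbp4*, a retinol carrier also made outside fat, fell by 0.72 on the log2 scale (limma adjusted p = 0.0328), whereas *Adamtsl4* (-0.27, limma adjusted p = 0.174) and *Nrg4* (0.16, limma adjusted p = 0.418) did not pass the test. Of 6 tested brown fat genes, 2 were higher, *Cidea* (log2 fold change 1.54, limma adjusted p = 0.00845) and *Cox8b* (5.05, limma adjusted p = 0.000915), the latter a cytochrome oxidase subunit of muscle and brown fat. *Cidea* is also counted in the lipid droplet list. *Ucp1*, *Elovl3* and *Dio2* were likewise named after their values were seen. *Ucp1* and *Elovl3* never had more than 1 read in a library and were not tested, and *Dio2* did not pass the test (0.43, limma adjusted p = 0.555). *Cpt1b* (0.18, limma adjusted p = 0.644), *Cox7a1* (-0.31, limma adjusted p = 0.553) and *Ppargc1b* (-0.36, limma adjusted p = 0.285) did not pass the test.

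Markers of skeletal muscle stood beside these values. All 8 of 8 were higher in sgKRT19 tumors, with summed normalized read counts of 51.4 to 2089 in sgScramble tumors and 19130 to 25834 in sgKRT19 tumors. The part of muscle RNA in the *Gpd1*, *Slc2a4*, *Car3* and *Cox8b* values, and in those of *Lpl* and *Plin4*, was not tested. The muscle sum did not order the tumors as *Adipoq* did. It was 64.1 in sgScramble 1, where *Adipoq* was highest, and 25784 in sgKRT19 5, where *Adipoq* was 11.6. Summed markers of adipose stromal progenitors were 4173 to 6982 in sgScramble tumors and 15338 to 19328 in sgKRT19 tumors, with 2 of 8 higher and 1 lower. In sgKRT19 tumors most of that sum was *Ly6a*, a surface protein of progenitors that other cells also make. It was at 1761 to 4672 in sgScramble tumors and 12660 to 16330 in sgKRT19 tumors. *Pi16*, a marker of progenitors in the connective tissue around fat, which like *Ly6a* and *Pecam1* was named after its values were seen, had the same 3 highest libraries as *Adipoq*, with normalized read counts of 344, 128, 204 and 311 in sgScramble tumors and 92.5, 158 and 321 in sgKRT19 tumors. Summed epithelial markers of the cancer cells were 144721 to 202634 and 264255 to 269891. Of these 8 markers, 4 were higher, 1, the edited *Krt19*, was lower, and 3 did not pass the test. The largest parts were *Krt8* and *Krt18*, also named after their values were seen. Their means were 55494 and 49260 in sgScramble tumors and 103416 and 95589 in sgKRT19 tumors. Summed fibroblast markers were 113052 to 261915 and 123072 to 143579, general leukocyte markers 6580 to 8927 and 12200 to 16524, and markers of skin keratinocytes and sebocytes 191 to 269 and 190 to 277. The cells that gave the adipocyte transcripts were not identified, and whether fat beside the tumor entered the RNA was not tested.

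**Figure D4:**
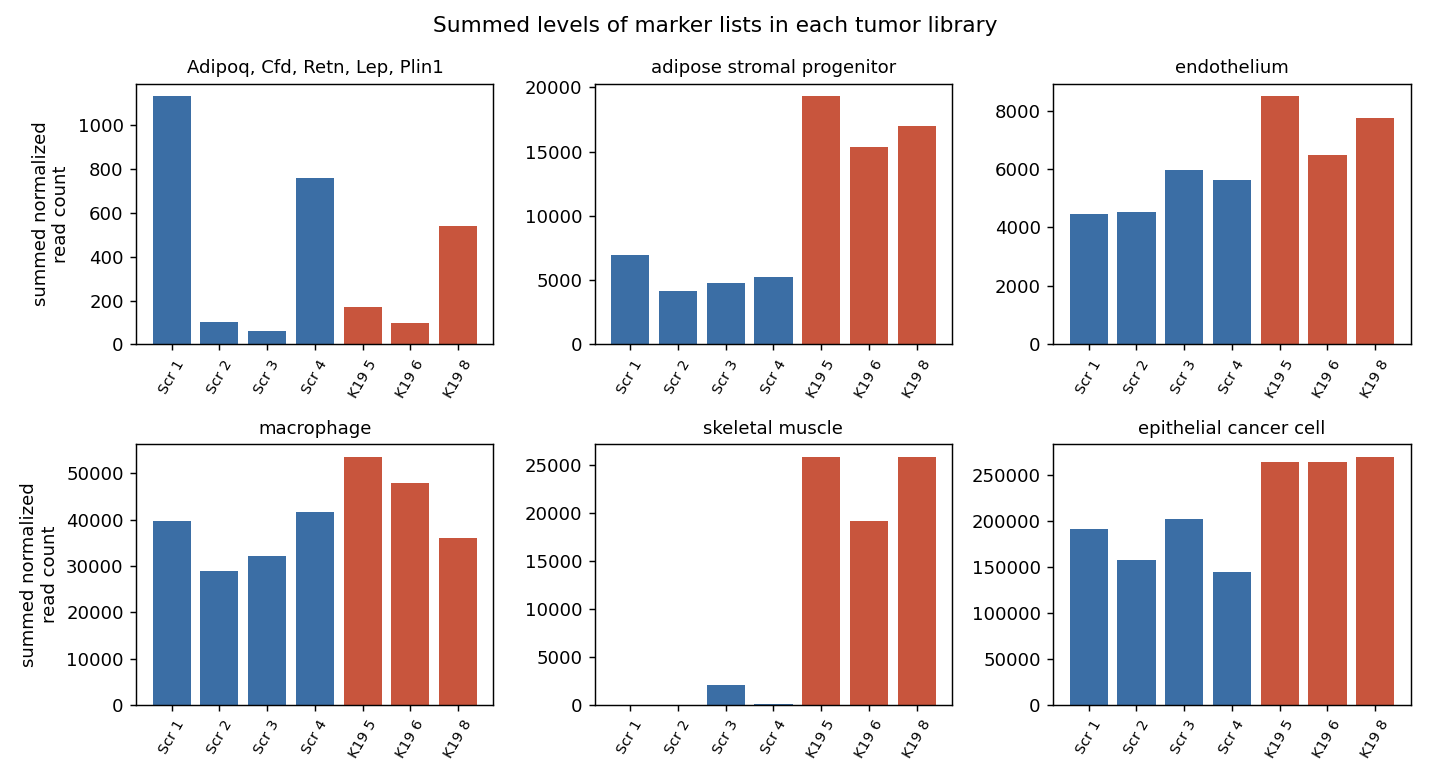
Summed normalized read count in each of 7 tumor libraries (sgScramble in blue, sgKRT19 in red; linear axes from 0) of 5 adipocyte genes and of 5 marker lists. The adipocyte sum is highest in sgScramble 1 (1133), sgScramble 4 (759) and sgKRT19 8 (542), whereas the muscle sum is at least 19130 in all sgKRT19 tumors and at most 2089 in sgScramble tumors.

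The genes most like the adipocyte pattern were taken as the 10 with the highest Pearson r, over the 7 libraries, with the mean log2 level of *Adipoq*, *Plin1* and *Cidec*, among 13353 genes with a mean normalized read count of at least 50 and leaving out all genes of the lists. Of the members themselves, *Adipoq* (r = 0.98), *Cfd* (0.98), *Plin1* (0.97), *Retn* (0.93) and *Lep* (0.86) followed this mean, whereas *Cidec*, although part of it, did not (0.14), nor did *Pparg* (-0.22). *Adipoq* and *Plin1* are also part of the mean and, with SDs of 1.78 and 1.57 against 0.32 for *Cidec*, dominate it. Their own r was thus largely fixed in advance. First in likeness was *Hp*, haptoglobin, a hemoglobin-binding plasma protein made by liver and fat (r = 0.95). It was followed by *Hnrnpa1l2-ps* (0.91), *Dpt*, which encodes the matrix protein dermatopontin (0.90), *Cyp7b1*, an oxysterol hydroxylase (0.87), *Cog2* (0.87), *Folr2*, a folate receptor of resident macrophages (0.86), *Pnpt1* (0.83), *Mup18* (0.82), *Mup22* (0.82) and *Ilk* (0.81). *Hp* had normalized read counts of 2919, 379, 675 and 1732 in sgScramble tumors and 670, 411 and 1440 in sgKRT19 tumors, and it did not pass the test between the groups (log2 fold change -0.54, limma adjusted p = 0.533). *Mup18* and *Mup22* belong to a family of near-identical copies among which reads can be split, so their values are uncertain. These 10 were the highest of many genes over 7 points and carry no test.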

How the data were processed

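The 7 libraries were polyadenylated RNA per the labels, whereas the study's methods name a total RNA kit, with 12 PCR cycles. The deposited values are a signal per gene, read counts that the authors divided by a size factor for each library, on mm10 per the submitters' notes. The aligner, counter and annotation are not given in the sources used here. Reads were recovered from the steps between low values to within 0.1 of a whole read. Log2(value + 1) was fitted with limma 3.58.1 (trend, R 4.3.3) on genes that reached a value of 10 in 3 or more libraries, with Benjamini-Hochberg adjustment over all of them. The procedure was tested on simulated data. edgeR 4.0.16 and DESeq2 1.42.0 on recovered reads, a pseudocount of 10, no filter, scaling by library size, limma without trend and leaving out each library were alternatives. Gene positions and transcript lengths came from GENCODE M21 on GRCm38, and *Plin4* was matched there to another version of its identifier. The members and lists were chosen with earlier results of these data known. The text names the members, the 4 genes of highest mean in each pathway list, the 10 genes most like *Adipoq*, *Plin1* and *Cidec* outside the lists, and genes said to have been added. A further engineered allele of the cell line is not reported here.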

Additional observations from a re-analysis of the deposited data

Results flagged for a closer look

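Of 19 results searched for a tumor far from the others of its group, 1 was found. The summed normalized read count of skeletal muscle markers in sgScramble 3 was 2089, and the gap to the next sgScramble tumor was 0.987 of the range of the group. The search rule passes about 1 in 20 groups by chance, and the chance of a gap as large as this one was not computed. In that tumor *Adipoq*, at 9.13, *Cfd*, at 45.7, and *Retn*, at 1.83, were the lowest of the 7 libraries.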

How the results depend on the processing

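No paired analysis was possible because the groups share no replicate number. *Plin4* was called under all 13 alternatives, with log2 fold changes from -1.32 to -0.94. The count of members called, 1 in the report, became 2 with a pseudocount of 10 and 2 with DESeq2, through *Pparg* in both, and ranged from 1 to 4 when each library was left out, with 4 without sgScramble 1 and 2 without sgKRT19 8. The direction of *Adipoq* turned without sgScramble 1 (log2 fold change 0.16), and its values ranged from -1.40 to 0.16. *Cfd* turned without sgScramble 1 (0.40), sgScramble 4 (0.21) or sgKRT19 6 (0.29), with a range of -1.01 to 0.40. The causes were not tested. *Plin1* and *Retn* kept a negative sign in the 10 alternatives that gave a value, and fell under the filter without sgScramble 1, sgScramble 4 or sgKRT19 8. The count of pathway genes called, 29, ranged from 19 without sgKRT19 8 to 30 when libraries were left out. *Lep*, *Retn* and *Plin1* had 3 or fewer reads in at least 1 library, which limits their order among the low tumors.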

Other observations

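The 126 tested genes whose 3 highest libraries were sgScramble 1, sgScramble 4 and sgKRT19 8 included, beyond the adipocyte genes, others named here after their values were seen. All 21 tested rows with a symbol of *Mup* and a number, the genes of the major urinary proteins, had these 3 highest libraries. They hold 16 symbols, several of them on more than 1 row with the same values, and their near-identical copies share reads, so they are not separate measurements. *Serpina3c*, *Apoc1*, *Cyp2e1*, *Cyp2f2*, *Orm1*, *Serpina3n*, *Cd163*, *Lyve1*, *Folr2*, *Clec3b*, *Tnxb* and *Dpt* were also among the 126. These names are not a test of any cell type. Of the marker lists, 0 of 8 macrophage, 0 of 8 endothelial and 0 of 8 fibroblast markers had these 3 highest libraries, and 1 of 8 adipose stromal progenitor markers, *Pi16*, did. Over all tested genes the share was 0.591%, so lists of 8 are too short for these counts to set cell types apart.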
